A study of Homo sapiens with 4 samples.

Results

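The genes described here are 37 genes of the unfolded protein response and the integrated stress response, taken by their gene symbols from a table of 32673 genes. They were chosen by name and function, with earlier results of these data known, and all 37 were found in the table. RNA of a pair of human cell lines was sequenced in 2 libraries per line. TF1-BA cells are the erythroleukaemia line TF1 carrying BCR-ABL, the fusion tyrosine kinase of chronic myeloid leukaemia, from a p210 BCR-ABL retrovirus, and they are sensitive to imatinib, which blocks that kinase. TF1-BAR cells were derived from them by months of continuous imatinib treatment and are resistant to the drug. The sample labels add 2 μM imatinib to the culture of the resistant cells and 2 ng/mL granulocyte-macrophage colony-stimulating factor and serum to that of both lines, while the methods of the study give a higher concentration of the factor. Each library came from 10000000 cells by the labels. By their titles the TF1-BAR samples are vector libraries, so that a control vector, if the cells carried one, and imatinib, if it was present when RNA was taken, cannot be told apart from resistance. Each condition is represented by 1 derived line, and nothing in the labels says whether the replicates were separate cultures, so that the tests measure the spread between these libraries only.

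The endoplasmic reticulum (ER) folds secreted and membrane proteins, and an excess of unfolded protein there is sensed by PERK, IRE1 and ATF6, which raise chaperones, enzymes of disulphide bonding and the machinery of ER-associated degradation (ERAD). The integrated stress response is the arm shared with other stresses. Here 4 kinases phosphorylate the translation factor eIF2α, overall translation falls while that of ATF4 rises, and ATF4 and its partner CHOP, the product of DDIT3, switch on genes of amino acid supply, feedback and cell death. Much of this signalling is not visible in gene-level RNA values, since the kinases act by phosphorylation, ATF4 is controlled by translation, ATF6 by cleavage and XBP1 by splicing. TF1 cells are blood progenitor cells and not specialised secretory cells. Since the libraries are from bulk RNA, fewer cells with a transcript and less of it per cell cannot be told apart.

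Levels are given in FPKM, which divide a gene's fragments by its length and by the library size and can therefore be compared between genes. The fragments behind them were 18042299 and 15465497 in the libraries of TF1-BA, and 15761642 and 16074303 in those of TF1-BAR. The lines were compared as log2(FPKM + 0.5) with limma over the 15519 genes with a mean of at least 0.5 FPKM, with Benjamini-Hochberg adjustment over all of them. Changes are given as log2 fold changes, TF1-BAR over TF1-BA, with their standard error (SE). A gene is said to have risen or fallen where its adjusted p was under 0.05, and the thresholds of the study ask in addition for a log2 fold change of at least 1 in size. All 10 progenitor and erythroid genes checked were present in every library, among them GATA1 with 65.9 to 75.4 FPKM and CD34 with 24.7 and 25.8 FPKM in the TF1-BA cells and 53.9 and 61.2 FPKM in the TF1-BAR cells. Among genes of other cell types, the epithelial, fibroblast and hepatocyte genes were at or below 0.429 FPKM and the T cell gene CD3E at or below 0.0227 FPKM, but the T cell gene CD3D had 5.74 to 20.7 FPKM and the B cell gene CD79A had 1.84 to 3.55 FPKM.

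Several of the genes that fell carry well-known stress elements in their promoters, and so do some that did not. The stretches printed below show the ER stress elements of HSPA5, HERPUD1 and SDF2L1, which fell, beside those of CALR and HYOU1, which did not pass the test, and PPP1R15B, which had a small decrease, shows the CEBP-ATF response element. They are RefSeq reference sequence of GRCh38.p14, 5′ to 3′ on the strand of the gene, each 80 bases long except for HYOU1, and were limited to stretches that lie before the start of the gene in the deposited table. Capitals mark matches, on either strand, to the ER stress element (CCAAT and CCACG with 9 bases between them), the ER stress element II (ATTGG and CCACG with 1 base between them), the CEBP-ATF response element (TGATGNAAN) or the unfolded protein response element (TGACGTGG).

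HSPA5 (chr9:125241361-125241440, minus strand, ER stress element, fell): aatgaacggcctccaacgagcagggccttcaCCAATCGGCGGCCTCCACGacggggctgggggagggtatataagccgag
HERPUD1 (chr16:56931960-56932039, plus strand, CEBP-ATF response element and then ER stress element II, fell): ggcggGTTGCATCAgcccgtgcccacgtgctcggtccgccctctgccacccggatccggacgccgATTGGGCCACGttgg
SDF2L1 (chr22:21642079-21642158, plus strand, ER stress element II, fell): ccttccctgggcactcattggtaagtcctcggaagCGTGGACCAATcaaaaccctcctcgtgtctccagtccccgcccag
PPP1R15B (chr1:204411988-204412067, minus strand, CEBP-ATF response element, fell): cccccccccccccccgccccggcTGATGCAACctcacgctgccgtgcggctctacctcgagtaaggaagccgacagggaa
CALR (chr19:12938359-12938438, plus strand, ER stress element, not past the test): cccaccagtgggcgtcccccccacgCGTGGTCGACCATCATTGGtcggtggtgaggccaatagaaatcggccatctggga
HYOU1 (chr11:119057274-119057393, minus strand, 120 bases with an unfolded protein response element overlapping the first of 2 matches to ER stress element II, not past the test): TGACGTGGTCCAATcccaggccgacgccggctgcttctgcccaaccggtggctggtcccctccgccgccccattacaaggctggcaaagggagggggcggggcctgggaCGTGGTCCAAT

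RefSeq windows from 250 bases before to 50 bases after the start were given for 34 of the 37 genes. An ER stress element of either form was found in 10 of these 34 genes and in 0.161% of the 27305 genes with a window. The 10 were CALR, CANX, CRELD2, HERPUD1, HSP90B1, HSPA5, HYOU1, PDIA6, SDF2L1 and XBP1, of which 5 fell and 5 did not pass the test. The CEBP-ATF response element was found in 4 of the 34, ASNS, CHAC1, HERPUD1 and PPP1R15B, and in 4.45% of all genes with a window. All of these 4 genes fell. The unfolded protein response element was found in HYOU1 alone among the 34 and in 0.927% of all genes. A match in such a window is a description of the letters only, and binding was not measured.

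36 of the 37 genes passed the filter on low values. Of these, 19 fell in the TF1-BAR cells, 1 rose and 16 did not pass the test, while of all genes tested 10.5% fell, 16.3% rose and 26.9% changed in either direction. The balance over all genes depended on the scaling, since 1630 fell and 2537 rose here, 1938 and 2042 with quantile normalization and 1352 and 3184 rescaled to TPM. Of the stress response genes, 19 fell and 1 rose with quantile normalization, and 16 fell and 2 rose rescaled to TPM. 8 genes fell past both thresholds, HERPUD1, HSPA5, DDIT3, SDF2L1, SEL1L, DDIT4, CRELD2 and PDIA4, and 0 rose past them, against 1.69% and 3.05% of all genes tested. The largest log2 fold change among the 36 genes was 0.524, so that no p threshold could move the count from 0. In limma voom on the recovered fragments this count was 0 as well. With quantile normalization, 338 of all genes fell and 359 rose past both thresholds, in place of 263 and 474. The 2 libraries of TF1-BAR lay below both TF1-BA libraries for 22 of the 36 genes and above them for 5, against 28.4% and 40.9% of all genes tested. The median log2 fold change was −0.389 over the 36 genes and 0.0658 over all genes. Ordered from the largest decrease among the 15519 genes, HERPUD1 was in place 14, HSPA5 in place 27, DDIT3 in place 37 and SDF2L1 in place 85.

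**Figure D1:**
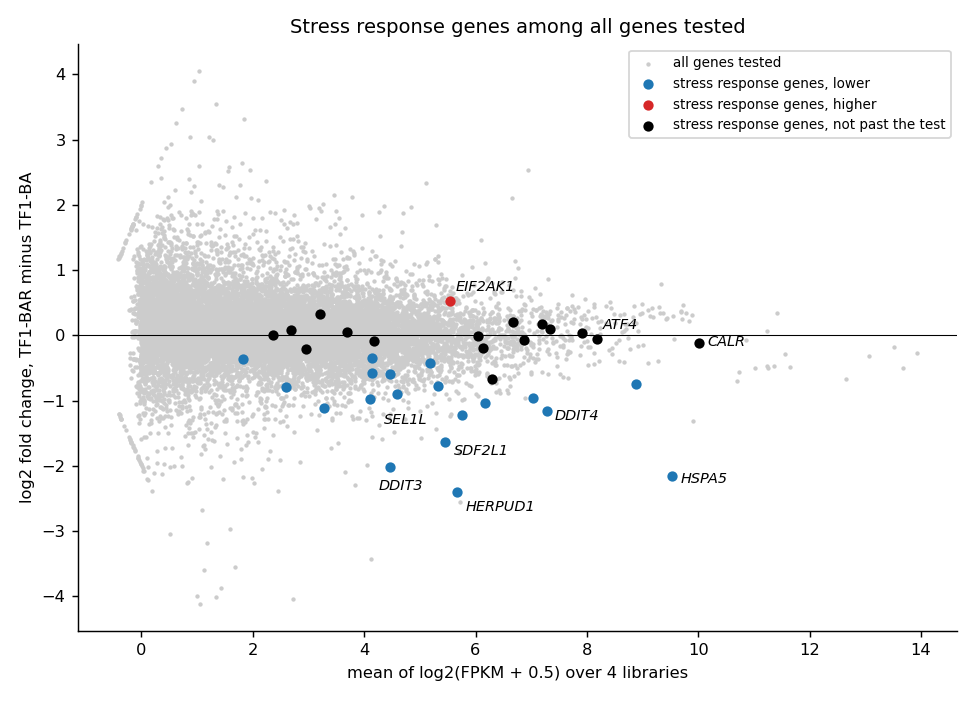
Log2 fold change between the cell lines (vertical axis, TF1-BAR minus TF1-BA) against the mean of log2(FPKM + 0.5) over the 4 libraries (horizontal axis) for all 15519 genes tested (grey) and for the 36 stress response genes tested (coloured by their call). HERPUD1, HSPA5 and DDIT3 lie below −2, and HSPA5 does so at one of the highest expression levels, whereas CALR, at a similar level, lies near 0.

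How far these calls rest on single libraries was examined by leaving each out. 14 genes fell without TF1-BAR replicate 1, 6 without TF1-BAR replicate 2, 6 without TF1-BA replicate 1 and 2 without TF1-BA replicate 2. Over all genes tested, 1349, 481, 59 and 17 genes then fell. HERPUD1 and DDIT3 fell in each of these 4 fits and in the other 11 alternatives. HSPA5 had an adjusted p of 0.0517 without TF1-BA replicate 2 and 0.0505 without TF1-BAR replicate 2, and 2.63e-07 to 0.0517 over all 15 alternatives. HSP90B1 and VLDLR were the least stable calls, lost in 9 and 8 of the 15 alternatives.

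The kinases of eIF2α come first in the pathway. EIF2AK1, the heme-regulated kinase HRI that limits globin synthesis in erythroid cells, was the only stress response gene that rose. Its level was 38.1 and 38.7 FPKM in the libraries of TF1-BA, and 52.0 and 59.1 FPKM in those of TF1-BAR, so that the groups did not overlap. The log2 fold change was 0.52 (SE 0.0810, adjusted p = 0.0144 from limma), and its adjusted p was 0.110 without TF1-BA replicate 1 and 0.106 without TF1-BA replicate 2. EIF2AK1 encodes the most abundant of these kinase transcripts, since the levels of the other kinases lay between 4.29 and 10.4 FPKM in all libraries.

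EIF2AK2, the kinase PKR that is activated by double-stranded RNA, had 7.90 and 7.67 FPKM in the TF1-BA cells and 10.4 and 9.31 FPKM in the TF1-BAR cells. Its log2 fold change of 0.32 (SE 0.0859) had an adjusted p of 0.0511, which ranged from 0.00871 to 0.246 over the alternatives. EIF2AK3 encodes PERK, the kinase of the ER membrane, and was at 4.29 and 5.07 FPKM against 4.60 and 4.72 FPKM, with overlapping groups and a log2 fold change of −0.0025 (SE 0.105, adjusted p = 0.988). EIF2AK4 encodes GCN2, which senses uncharged tRNA, and its log2 fold change was 0.086 (SE 0.0796, adjusted p = 0.457).

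Of the phosphatase subunits that undo eIF2α phosphorylation, PPP1R15B fell and PPP1R15A did not pass the test, and the difference between them was not tested. PPP1R15A, the stress-induced subunit GADD34, had 61.9 and 70.1 FPKM in the TF1-BA cells and 61.4 and 69.7 FPKM in the TF1-BAR cells, a log2 fold change of −0.011 (SE 0.0973, adjusted p = 0.943). PPP1R15B, the constitutive subunit CReP, had 20.1 and 19.0 FPKM against 15.8 and 14.7 FPKM and fell, with a log2 fold change of −0.35 (SE 0.0742, adjusted p = 0.0293). The adjusted p of PPP1R15B was 0.196 without TF1-BA replicate 1, 0.145 without TF1-BA replicate 2 and 0.0855 without TF1-BAR replicate 2.

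Among the transcription factors, the abundant transcript of ATF4 did not pass the test, while that of DDIT3 fell. ATF4 had 291.5 and 298.8 FPKM in the libraries of TF1-BA, and 291.5 and 277.0 FPKM in those of TF1-BAR, a log2 fold change of −0.055 (SE 0.0558, adjusted p = 0.496), which was 0.0135 with FPKM rescaled to TPM. DDIT3 (ENSG00000175197, chromosome 12 from 57516588 to 57520517 of GRCh38) encodes CHOP, which promotes cell death in prolonged stress. It had 41.6 and 45.9 FPKM in the TF1-BA libraries, from 950 and 899 fragments, and 10.9 and 9.93 FPKM in the TF1-BAR libraries, from 218 and 202 fragments. The groups lay far apart, the mean level was 4.20-fold lower in the TF1-BAR cells, and the log2 fold change was −2.02 (SE 0.0868, adjusted p = 0.00174). Within each library, DDIT3 stood at 0.143 and 0.154 of the level of ATF4 in the TF1-BA cells and at 0.0375 and 0.0358 of it in the TF1-BAR cells.

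ATF5, a transcription factor also translated under eIF2α phosphorylation, had 6.90 and 8.01 FPKM in the TF1-BA cells and 4.32 and 3.88 FPKM in the TF1-BAR cells. It fell with a log2 fold change of −0.79 (SE 0.109, adjusted p = 0.0115), and its adjusted p was 0.0698 and 0.0936 without TF1-BA replicate 1 and 2 and 0.0642 without TF1-BAR replicate 2. NUPR1, a stress-induced chromatin protein, was covered by 2 and 3 fragments in TF1-BA and by 3 and 2 in TF1-BAR. NUPR1 was below the filter of 0.5 FPKM and was not tested. Its fragments did not exceed the floor of 3, and no difference was detectable at this depth.

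5 of the 6 targets of ATF4 and CHOP fell. DDIT4 (ENSG00000168209, chromosome 10 from 72273920 to 72276036), which encodes the mTORC1 inhibitor REDD1, had 236.8 and 224.5 FPKM in the TF1-BA cells and 99.7 and 107.3 FPKM in the TF1-BAR cells. Its level was 2.23-fold lower, with a log2 fold change of −1.15 (SE 0.0656, adjusted p = 0.00307), and the adjusted p was 0.0527 without TF1-BA replicate 2. DDIT4 lies on chromosome 10, whose 593 genes tested had a median log2 fold change of −0.346, and the part of this shift in its decrease was not tested. The median of no other autosome carrying one of these genes was below 0.

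ASNS, asparagine synthetase, had 179.9 and 185.6 FPKM in the TF1-BA cells and 102.9 and 85.6 FPKM in the TF1-BAR cells. Its log2 fold change of −0.96 (SE 0.0992, adjusted p = 0.00705) was just short of the fold threshold. CHAC1, an enzyme that degrades glutathione, had 56.1 and 48.5 FPKM against 29.9 and 30.4 FPKM, a log2 fold change of −0.78 (SE 0.0871, adjusted p = 0.00794). The groups did not overlap for either gene. Without TF1-BA replicate 1 or 2, the adjusted p was 0.0657 and 0.0695 for ASNS and 0.0660 and 0.0565 for CHAC1, and for CHAC1 it was 0.0521 without TF1-BAR replicate 2.

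SESN2, a sestrin that senses leucine and restrains mTORC1, had 40.9 and 41.9 FPKM in the TF1-BA cells and 28.6 and 33.2 FPKM in the TF1-BAR cells, a log2 fold change of −0.42 (SE 0.0887, adjusted p = 0.0293). VLDLR, the receptor of very low density lipoprotein, had 3.59 and 3.40 FPKM against 2.63 and 2.60 FPKM, a log2 fold change of −0.36 (SE 0.0916, adjusted p = 0.0451). Both decreases were small. The adjusted p of SESN2 was 0.153 without TF1-BA replicate 1 and 0.165 without TF1-BA replicate 2, and that of VLDLR was above 0.05 without any 1 of the libraries, from 0.0943 to 0.253.

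TRIB3, a pseudokinase induced by CHOP that feeds back on ATF4, was the exception among the targets. It had 132.4 and 142.9 FPKM in the TF1-BA cells and 145.1 and 167.5 FPKM in the TF1-BAR cells, a log2 fold change of 0.18 (SE 0.0900, adjusted p = 0.197). TRIB3 lies on chromosome 20, whose 440 genes tested had a median log2 fold change of 0.390. It did not pass the test in any of the 15 alternatives, where its log2 fold change lay between 0.0768 and 0.283.

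**Figure D2:**
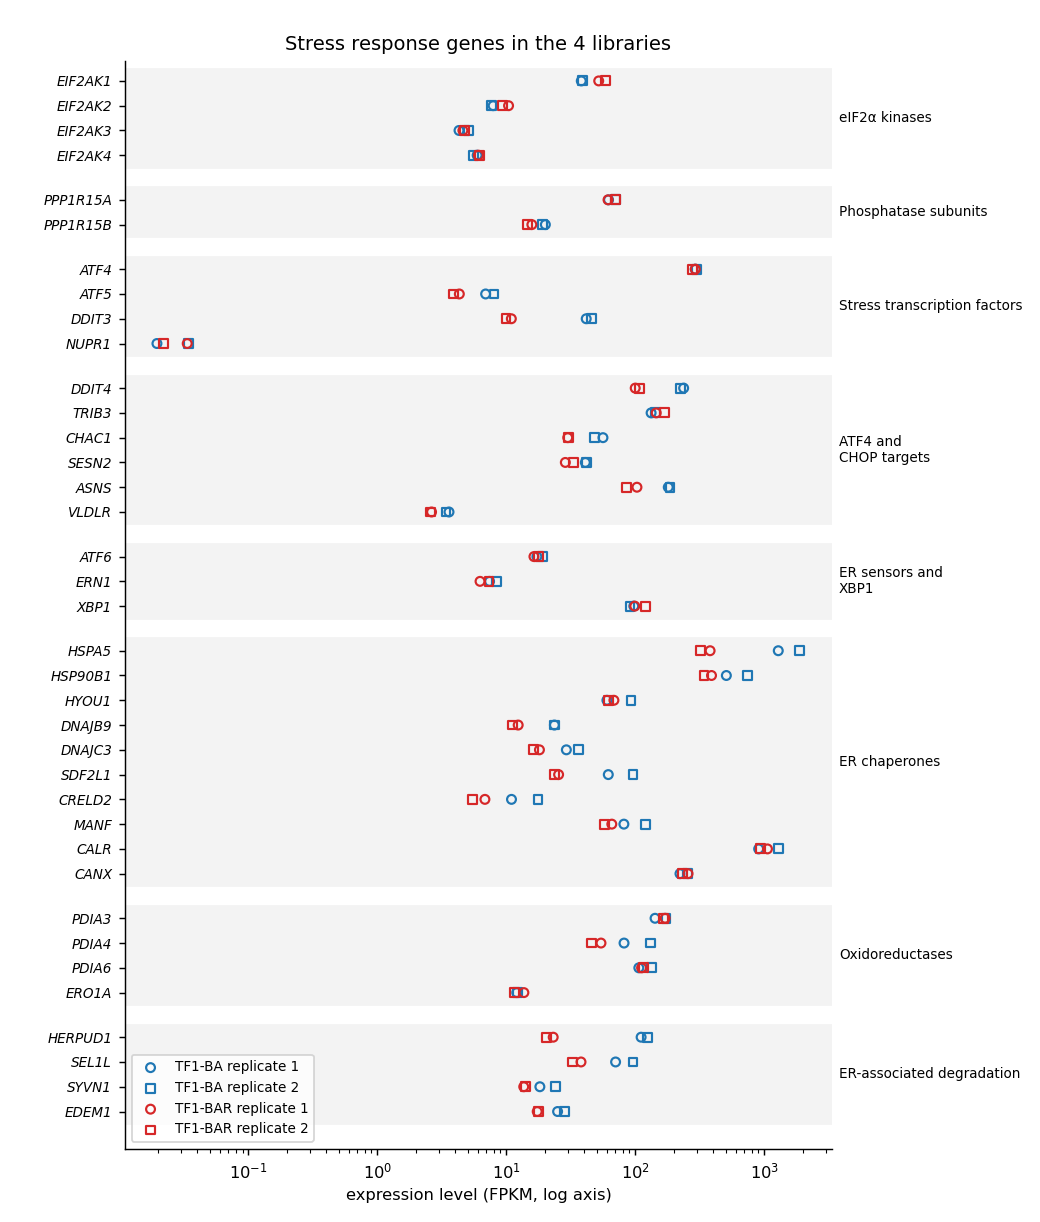
FPKM of the 37 stress response genes (horizontal log axis) in the 4 libraries, grouped by role. Blue symbols are TF1-BA and red symbols TF1-BAR, circles replicate 1 and squares replicate 2. The blue and red symbols are widest apart for HERPUD1, HSPA5, DDIT3 and SDF2L1, and they lie close together for ATF4, PPP1R15A and CANX.

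Neither the ER sensors ATF6 and ERN1 nor their factor XBP1 passed the test in limma at the level of the transcript, also at an unadjusted p under 0.05 or with limma voom. ATF6, the sensor that is cleaved into a transcription factor, had 17.2 and 18.9 FPKM in the TF1-BA cells and 16.4 and 17.7 FPKM in the TF1-BAR cells, a log2 fold change of −0.086 (SE 0.0826, adjusted p = 0.475). ERN1, which encodes the kinase and endoribonuclease IRE1α, had 7.41 and 8.37 FPKM against 6.25 and 7.34 FPKM, a log2 fold change of −0.20 (SE 0.112, adjusted p = 0.233). XBP1, whose transcript is spliced by IRE1, had 97.2 and 90.9 FPKM against 99.0 and 119.6 FPKM, a log2 fold change of 0.21 (SE 0.105, adjusted p = 0.198). The groups overlapped for ATF6, and for ERN1 and XBP1 they were separated by less than the gap between the TF1-BAR replicates. The splicing of XBP1 cannot be read from these values.

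6 of the 10 ER chaperones and co-chaperones fell, and HSPA5 fell most. HSPA5 (ENSG00000044574, chromosome 9 from 125234853 to 125241330) encodes BiP, the HSP70 chaperone of the ER that also holds the sensors inactive. It had 1282 and 1885 FPKM in the TF1-BA libraries, from 90405 and 113923 fragments, and 379.7 and 318.6 FPKM in the TF1-BAR libraries, from 23388 and 20013 fragments. The highest TF1-BAR value was thus far below the lowest TF1-BA value, although the TF1-BA libraries differed from each other by 1.47-fold. The mean level was 4.54-fold lower in the TF1-BAR cells, with a log2 fold change of −2.16 (SE 0.200, adjusted p = 0.00597). Among all 32673 genes, HSPA5 ranked 18 and 16 by level in the libraries of TF1-BA, and 64 and 77 in those of TF1-BAR.

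HSP90B1, the HSP90 of the ER also called GRP94, had 507.5 and 739.1 FPKM in the TF1-BA cells and 389.4 and 340.3 FPKM in the TF1-BAR cells, a log2 fold change of −0.75 (SE 0.189, adjusted p = 0.0440). The change of HSP90B1 was −0.479 without TF1-BA replicate 2 (adjusted p = 0.125), and the adjusted p was above 0.05 without any 1 of the 4 libraries, up to 0.191. The order of the abundant chaperones differed between the lines. HSPA5 stood at 2.53 and 2.55 times the level of HSP90B1 in the TF1-BA libraries and at 0.975 and 0.936 times in the TF1-BAR libraries, and at 1.42 and 1.47 times against 0.359 and 0.339 times the level of CALR.

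SDF2L1 and CRELD2, small ER proteins induced with BiP, fell past both thresholds. SDF2L1 (ENSG00000128228, chromosome 22 from 21642261 to 21644298) had 61.7 and 95.9 FPKM in the TF1-BA cells and 25.4 and 23.6 FPKM in the TF1-BAR cells, a 3.22-fold lower mean with a log2 fold change of −1.63 (SE 0.211, adjusted p = 0.0103). CRELD2 (ENSG00000184164, chromosome 22 from 49918167 to 49927540) had 10.96 and 17.6 FPKM against 6.82 and 5.49 FPKM, a log2 fold change of −1.12 (SE 0.239, adjusted p = 0.0298). The groups did not overlap for either gene. The adjusted p of SDF2L1 was 0.0526 without TF1-BA replicate 2 and 0.0711 without TF1-BAR replicate 2, and that of CRELD2 was between 0.0535 and 0.143 without any 1 of the libraries.

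The J-domain co-chaperones DNAJB9 and DNAJC3 also fell. DNAJB9, which recruits BiP to IRE1, had 23.6 and 23.5 FPKM in the TF1-BA cells and 12.3 and 11.1 FPKM in the TF1-BAR cells, a log2 fold change of −0.98 (SE 0.0795, adjusted p = 0.00504). DNAJC3, or p58IPK, an inhibitor of the eIF2α kinases, had 29.2 and 36.0 FPKM against 18.04 and 16.3 FPKM, a log2 fold change of −0.90 (SE 0.121, adjusted p = 0.0111). Without TF1-BA replicate 1 or 2, the adjusted p was 0.0589 and 0.0588 for DNAJB9 and 0.0528 and 0.0715 for DNAJC3, and without TF1-BAR replicate 2 it was 0.0680 for DNAJC3.

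The other 4 chaperones did not pass the test. MANF, a secreted factor retained by BiP, had 81.5 and 119.2 FPKM in the TF1-BA cells and 65.7 and 57.5 FPKM in the TF1-BAR cells, with a log2 fold change of −0.68 (SE 0.191, adjusted p = 0.0575, from 0.00202 to 0.227 over the alternatives). HYOU1, the nucleotide exchange factor GRP170, had 60.2 and 92.6 FPKM against 68.2 and 62.1 FPKM, a log2 fold change of −0.20 (SE 0.208, adjusted p = 0.511). The lectin chaperones that fold glycoproteins overlapped between the lines. CALR, calreticulin, had 903.5 and 1285 FPKM against 1057 and 938.8 FPKM, a log2 fold change of −0.11 (SE 0.177, adjusted p = 0.663), and CANX, calnexin, had 221.8 and 251.8 FPKM against 256.1 and 231.0 FPKM, a log2 fold change of 0.041 (SE 0.0899, adjusted p = 0.760). With quantile normalization the log2 fold changes of CALR and CANX had the other sign, at 0.0367 and −0.0241.

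Of the 4 oxidoreductases, only PDIA4 fell. PDIA4 (ENSG00000155660, chromosome 7 from 149003062 to 149028641), the disulphide isomerase ERp72, had 81.7 and 130.7 FPKM in the TF1-BA cells and 54.1 and 46.0 FPKM in the TF1-BAR cells, a 2.12-fold lower mean with a log2 fold change of −1.04 (SE 0.233, adjusted p = 0.0329). The groups did not overlap, but the log2 fold change was −0.706 without TF1-BA replicate 2 and −1.38 without TF1-BA replicate 1, and the adjusted p lay between 0.0521 and 0.157 without any 1 of the libraries. PDIA3 (ERp57), the partner of the lectin chaperones, had 142.1 and 172.7 FPKM against 170.1 and 165.1 FPKM and a log2 fold change of 0.097 (SE 0.103, adjusted p = 0.516). PDIA6 had a log2 fold change of −0.068 (SE 0.118, adjusted p = 0.694), and ERO1A, the oxidase that recharges the isomerases, one of 0.052 (SE 0.0982, adjusted p = 0.720). The libraries of the lines overlapped for each of these 3 genes.

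All 4 genes of ERAD fell. HERPUD1 (ENSG00000051108, chromosome 16 from 56932048 to 56944863) encodes HERP, a membrane protein that assembles the degradation complex, and had the largest decrease of the stress response genes. It had 110.8 and 123.9 FPKM in the TF1-BA libraries, from 10306 and 9878 fragments, and 23.1 and 20.4 FPKM in the TF1-BAR libraries, from 1874 and 1693 fragments. The replicates of each line lay close together and the lines far apart, with a 5.396-fold lower mean in the TF1-BAR cells and a log2 fold change of −2.41 (SE 0.0929, adjusted p = 0.00145). The log2 fold change of HERPUD1 was between −2.49 and −2.32 in all 15 alternatives. By level it ranked 268 and 230 of all genes in the libraries of TF1-BA, and 1876 and 2163 in those of TF1-BAR.

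SEL1L (ENSG00000071537, chromosome 14 from 81471549 to 81533861) and SYVN1, which encodes the ubiquitin ligase HRD1, form the core of that complex. SEL1L had 70.3 and 95.9 FPKM in the TF1-BA cells and 37.9 and 32.4 FPKM in the TF1-BAR cells, a log2 fold change of −1.22 (SE 0.168, adjusted p = 0.0115). SYVN1 had 18.2 and 24.1 FPKM against 13.6 and 14.1 FPKM, a log2 fold change of −0.58 (SE 0.143, adjusted p = 0.0416). EDEM1, a lectin that delivers misfolded glycoproteins to it, had 24.9 and 28.4 FPKM against 17.3 and 17.7 FPKM, a log2 fold change of −0.59 (SE 0.0846, adjusted p = 0.0123). The groups did not overlap for any of the 3 genes. The adjusted p of SEL1L was 0.0613 without TF1-BA replicate 2 and 0.0726 without TF1-BAR replicate 2. For EDEM1 it was 0.0686, 0.0972 and 0.0635 without TF1-BA replicate 1, TF1-BA replicate 2 and TF1-BAR replicate 2, and for SYVN1, whose log2 fold change was −0.378 without TF1-BA replicate 2, it was between 0.0623 and 0.144 without any 1 of the libraries.

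**Figure D3:**
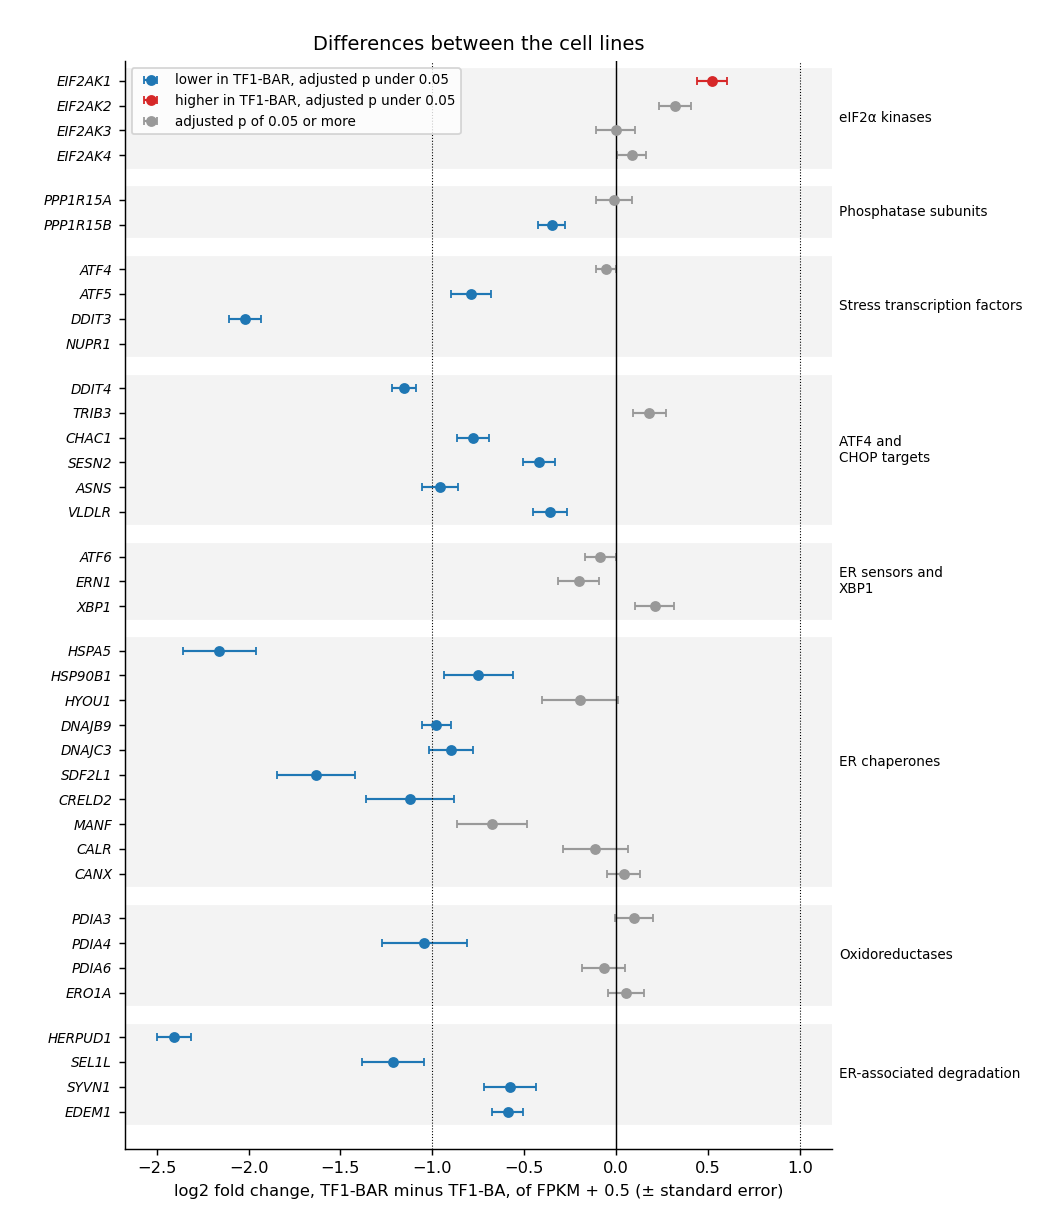
Log2 fold change of FPKM + 0.5 between the cell lines with its SE (horizontal axis, TF1-BAR minus TF1-BA, n = 2 libraries per line) for the 36 stress response genes tested, by role. Dotted lines mark the fold threshold of 1 in size. The 4 ERAD genes and 6 of 10 ER chaperones lie to the left with adjusted p under 0.05 (blue). Of the 8 genes to the right of 0, only EIF2AK1 has an adjusted p under 0.05 (red).

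The ER genes also differed between the TF1-BA replicates. TF1-BA replicate 2 was above replicate 1 for 9 of the 10 chaperones, 4 of 4 oxidoreductases and 4 of 4 ERAD genes, and for 46.3% of all genes tested. The median difference between the replicates, as log2(FPKM + 0.5), was 0.544 over the chaperones, 0.305 over the oxidoreductases and 0.290 over the ERAD genes, but −0.0189 over the targets of ATF4 and CHOP and −0.0121 over all genes. PDIA4 was 1.599-fold, CRELD2 1.61-fold, SDF2L1 1.55-fold and HYOU1 1.54-fold higher in replicate 2 than in replicate 1, whereas DNAJB9 stood at 0.996-fold and CHAC1 at 0.866-fold. In the TF1-BAR cells, replicate 2 was below replicate 1 for all 10 chaperones and for 44.6% of all genes tested. It was above replicate 1 for 1 of 4 oxidoreductases and 2 of 4 ERAD genes. The 3 stress transcription factors tested also had replicate 2 above replicate 1 in TF1-BA and below it in TF1-BAR, with median differences of 0.141 and −0.132. The median difference in the TF1-BAR cells was −0.161 over the chaperones and 0.0280 over all genes. This spread enters the standard errors of PDIA4, CRELD2, SDF2L1 and HSPA5, which were 0.200 to 0.239, while those of DDIT3, HERPUD1 and DNAJB9 were 0.0795 to 0.0929.

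**Figure D4:**
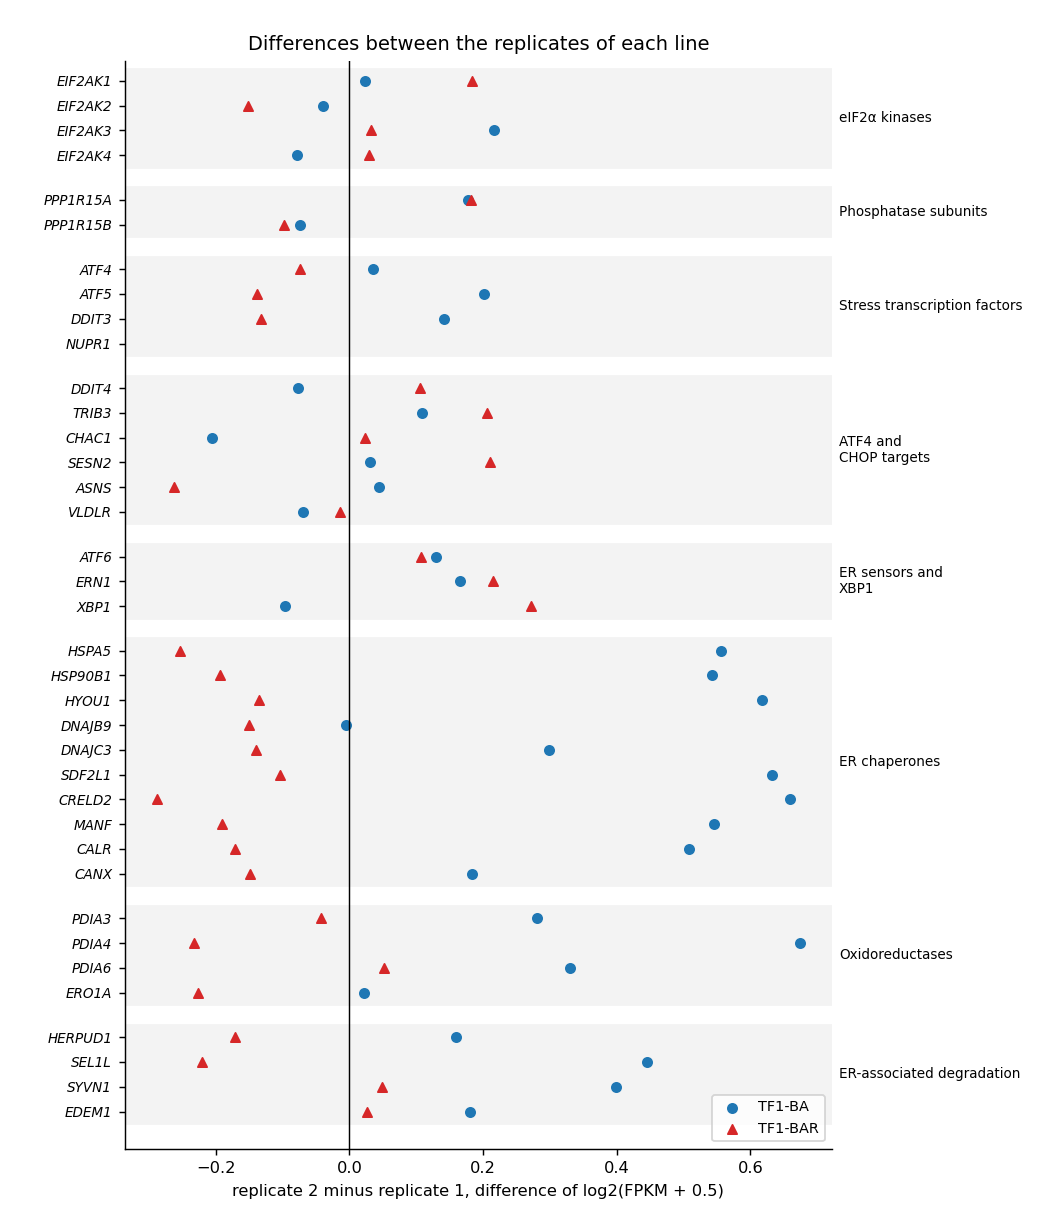
Difference of log2(FPKM + 0.5) between replicate 2 and replicate 1 (horizontal axis) for the 36 stress response genes tested, in the TF1-BA cells (blue circles) and the TF1-BAR cells (red triangles), by role. 9 of 10 ER chaperones are right of 0 in the TF1-BA cells and all 10 are left of 0 in the TF1-BAR cells. The 3 stress transcription factors tested lie in the same way, and the ATF4 and CHOP targets show no such shift.

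Further genes of these pathways were described from lists of 97 genes, of which 93 were tested. 20 fell and 7 rose, against 10.5% and 16.3% of all genes tested. The median log2 fold change was −0.0997 over the 93 genes and 0.0658 over all genes. Of 24 other genes of ATF4 and of the response to amino acid shortage, 11 fell, 0 rose and 13 did not pass the test, with a median log2 fold change of −0.302. In limma without adjustment and in limma voom, 15 and 14 of them were lower and 0 higher. Of all 15519 genes, limma voom called 2360 lower and 3475 higher, and the share at an unadjusted p was not determined. The largest change among the 24 genes was that of GDF15, a stress-induced cytokine. GDF15 had 28.9 and 38.4 FPKM in the TF1-BA cells and 13.1 and 17.1 FPKM in the TF1-BAR cells, a log2 fold change of −1.13 (SE 0.185, adjusted p = 0.0166). Of the 8 genes of eIF2 and its exchange factor eIF2B, EIF2B4 rose by 0.32 on the log2 scale (SE 0.0760, adjusted p = 0.0384) and 7 did not pass the test. Of the 4 genes that act on the kinases, OMA1, a mitochondrial protease, fell with a log2 fold change of −0.78 (SE 0.112, adjusted p = 0.0123), and DELE1, the protein that OMA1 cleaves to activate HRI, rose by 0.37 (SE 0.0806, adjusted p = 0.0311). DELE1 was named after its values were seen.

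The further ER genes were more mixed. Of 17 other ERAD genes, 4 fell (DERL2, DERL3, VCP and EDEM3) and 4 rose, with a median log2 fold change of −0.0139. DERL3, a derlin of the degradation channel, had the largest change, with 4.29 and 6.29 FPKM in the TF1-BA cells and 1.74 and 1.13 FPKM in the TF1-BAR cells and a log2 fold change of −1.58 (SE 0.234, adjusted p = 0.0129). Of 18 other folding genes, 4 fell (ERO1B, UGGT1, DNAJB11 and HSPA13), FKBP11 rose and 13 did not pass the test, and ERO1B, the second ER oxidase, had the largest change (log2 fold change −0.88, SE 0.137, adjusted p = 0.0146). DERL3 and ERO1B were named by a rule on the size of the change, and the other genes of these lists outside that rule, after their values were seen. None of the 16 genes of protein entry into the ER and none of the 6 tested genes of the ATF6 and CREB3 family and their proteases passed the test in limma. At an unadjusted p under 0.05 these were 1 and 3 genes, and with limma voom 3 and 2. The median log2 fold changes of these lists were −0.0821 and −0.143. Of all genes tested, 26.9% passed the test in limma, and limma voom called 2360 lower and 3475 higher.

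**Figure D5:**
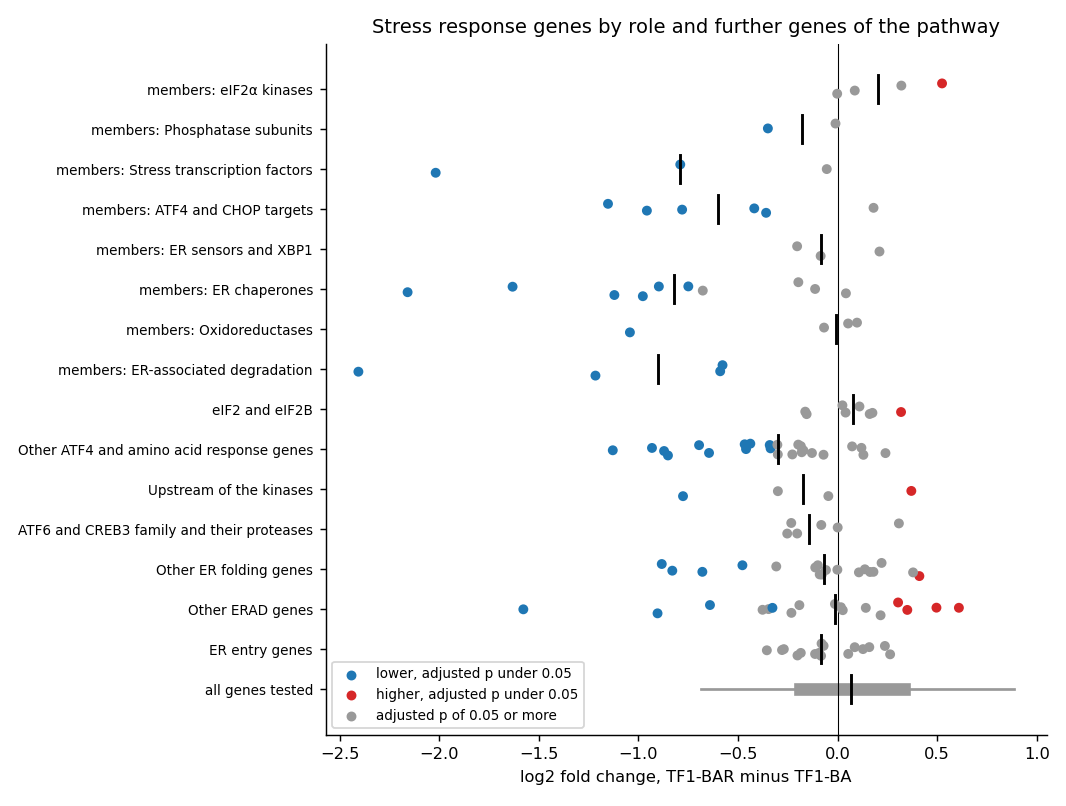
Log2 fold change between the cell lines (horizontal axis, TF1-BAR minus TF1-BA) of each stress response gene tested and of further genes of the pathways, by list. Points are genes coloured by their call, black bars are medians, and the bottom row gives all genes tested with the middle 50% (thick line) and the middle 90% (thin line). The lowest medians are those of the ERAD and chaperone genes, −0.903 and −0.824.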

How the data were processed

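RNA from 2 TF1-BA and 2 TF1-BAR libraries was sequenced. The authors deposited a table of FPKM per Ensembl gene on GRCh38. The submitters' processing notes name TopHat2 2.0.13, Cufflinks 2.2.0 and Cuffdiff 2.2.0, and the study used DESeq2 for its own tests. The annotation release is not given in the sources used here. As strand is not stated, reads of overlapping antisense genes or near-identical copies cannot be told apart from those of the genes named.

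The FPKM of 30853 of 30853 genes above 0 were whole multiples of 1 fragment, within a tolerance of 0.0001, for the library sizes given. The gene lengths behind this were annotated for 14114 genes and fitted for 16739, and a factor common to all fragment numbers could be missed. Replicates differed by more than counting error, since chi-square divided by its degrees of freedom came to 3.97 in TF1-BA and 6.69 in TF1-BAR. The precision is limited by 2 libraries per line, for which an exact permutation test of 1 gene cannot give a two-sided p below 0.333. Genes with a mean of at least 0.5 FPKM were compared as log2(FPKM + 0.5) in limma 3.58.1 (R 4.3.3) with a trend of the spread and Benjamini-Hochberg adjustment. The pseudocount makes fold changes of low genes appear smaller. The procedure was tested on simulated data.

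The stress response genes and the lists were chosen with earlier results of these data known. All 37 genes are named and, of the further lists, genes past both thresholds and for each list the changed gene that moved furthest, besides exceptions marked in the text. STC2, of the list of other ATF4 genes, is not analysed here. Single values of some listed genes are not reported here. Alternatives were other pseudocounts, filters, scalings and estimates of the spread, a replicate block, limma voom on the recovered fragments and each library left out.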

Additional observations from a re-analysis of the deposited data

How the results depend on the processing

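None of the 20 stress response genes that changed reversed its direction in the 15 alternatives, and HERPUD1 and DDIT3 kept their calls in all of them. Over the 36 genes and 15 alternatives, 441 values kept direction and call, 75 lost the call, 6 gained it and 18 turned direction. The last were those of 9 genes that did not pass the test. Their log2 fold changes with the other sign were as follows. EIF2AK3 was at 0.0593 rescaled to TPM and 0.00367 with limma voom. PPP1R15A was at 0.0569 rescaled to TPM and 0.0345 with quantile normalization. ATF4 was at 0.0135 rescaled to TPM. CALR was at 0.0367 and CANX at −0.0241 with quantile normalization. Over the 4 fits that left out 1 library, the values lay between −0.111 and 0.106 for EIF2AK3, −0.102 and 0.0798 for PPP1R15A, −0.506 and 0.111 for HYOU1, −0.367 and 0.141 for CALR, −0.0499 and 0.133 for CANX, −0.0431 and 0.237 for PDIA3, −0.233 and 0.0965 for PDIA6 and −0.0612 and 0.166 for ERO1A. The cause was not tested.

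Without a filter on low values, 8 stress response genes fell and 0 rose, 4 fell past both thresholds, and of all genes 595 fell, 851 rose and 307 rose past both thresholds; 30853 genes entered the adjustment in place of 15519. With no trend of the spread 12 stress response genes fell. 2 rose with a mean of at least 1 FPKM, rescaled to TPM, with robust estimates of the spread and with limma voom. Limma voom on the recovered fragments called 2360 of all genes lower and 3475 higher. With a pseudocount of 1 and with limma voom, 302 and 762 of all genes rose past both thresholds. Leaving out 1 library, where the lone sample is assumed to vary like the other line, left 2 to 14 stress response genes that fell, 0 to 1 that rose and 2 to 8 that fell past both thresholds. Of all genes, 17 to 1349 then fell, 25 to 1827 rose, 17 to 300 fell past both thresholds and 25 to 483 rose past them.

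Deviations of equally numbered libraries had a correlation of 0.0646 across 15519 genes, which are not independent replicates. This value cannot show whether equally numbered libraries were handled together, as each line gave a single difference between replicates. With the replicate number as a block 17 stress response genes fell, 1 rose and 8 fell past both thresholds.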
